A study of Takifugu fasciatus with 6 samples.

Results

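The genes described here are those that carry iron to cells, take it up, sense it and store it in the liver of the pufferfish Takifugu fasciatus. They are the rows of the gene table whose best Swiss-Prot match has the gene name tf, TFRC or Aco1, together with the rows whose matched protein name begins with Ferritin, which gave 6 rows of 20990. These were 1 row for tf, 2 for TFRC, 1 for Aco1 and 2 for ferritin. All 6 passed the filter on low counts. Liver mRNA of juvenile fish was sequenced in 6 libraries. The control group (CG, libraries G1, G2 and G3) stayed at 26 °C. The experimental group (EG, libraries Ga, Gb and Gc) was cooled at 0.85 °C per hour to 19 °C, kept there for 12 h, cooled again to 12 °C and held at that temperature for 24 h before dissection. Fish of both groups were of the same stock and had been fasted before the treatment. Since each library pooled 6 livers, replicate error here means the variation among pools. The comparison asks which iron transcripts of the liver differed between warm and cold fish.

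Transferrin is the plasma protein that carries ferric iron between tissues, and the liver is its main source. Cells take it up by transferrin receptor 1, which is internalised by clathrin, gives up its iron in the acid endosome and returns to the surface. Cytosolic aconitase is an enzyme while it holds an iron-sulfur cluster. When the cluster is missing, the same protein, then called iron regulatory protein 1, binds hairpins known as iron-responsive elements. In mammals this binding stabilises the transferrin receptor mRNA and blocks translation of ferritin, the shell that stores iron, so a ferritin mRNA level is not a ferritin protein level. Ferroportin is the iron exporter, and the liver hormone hepcidin, which blocks it, is the main regulator of plasma iron.

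Both TFRC rows and Aco1 were more abundant in cold fish, by 2.51-fold, 3.34-fold and 2.24-fold, while tf and the ferritin rows did not pass the test. A gene passed when its adjusted p was under 0.05 in the quasi-likelihood test of edgeR, adjusted by the Benjamini-Hochberg method across the 14357 genes tested. By this rule 3 of the 6 rows were higher in EG, 0 were lower and 3 did not pass. Over all genes tested, 23.7% were higher in EG and 21.7% were lower, so the libraries differed widely. The median log2 fold change was 0.80 over the 6 rows and -0.03 over all genes tested. The 3 rows that passed were also the 3 whose groups did not overlap, against 57.8% of all genes tested. Levels below are CPM (read counts rescaled to a common library size, with TMM factors), and fold changes are EG over CG.

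**Figure D1:**
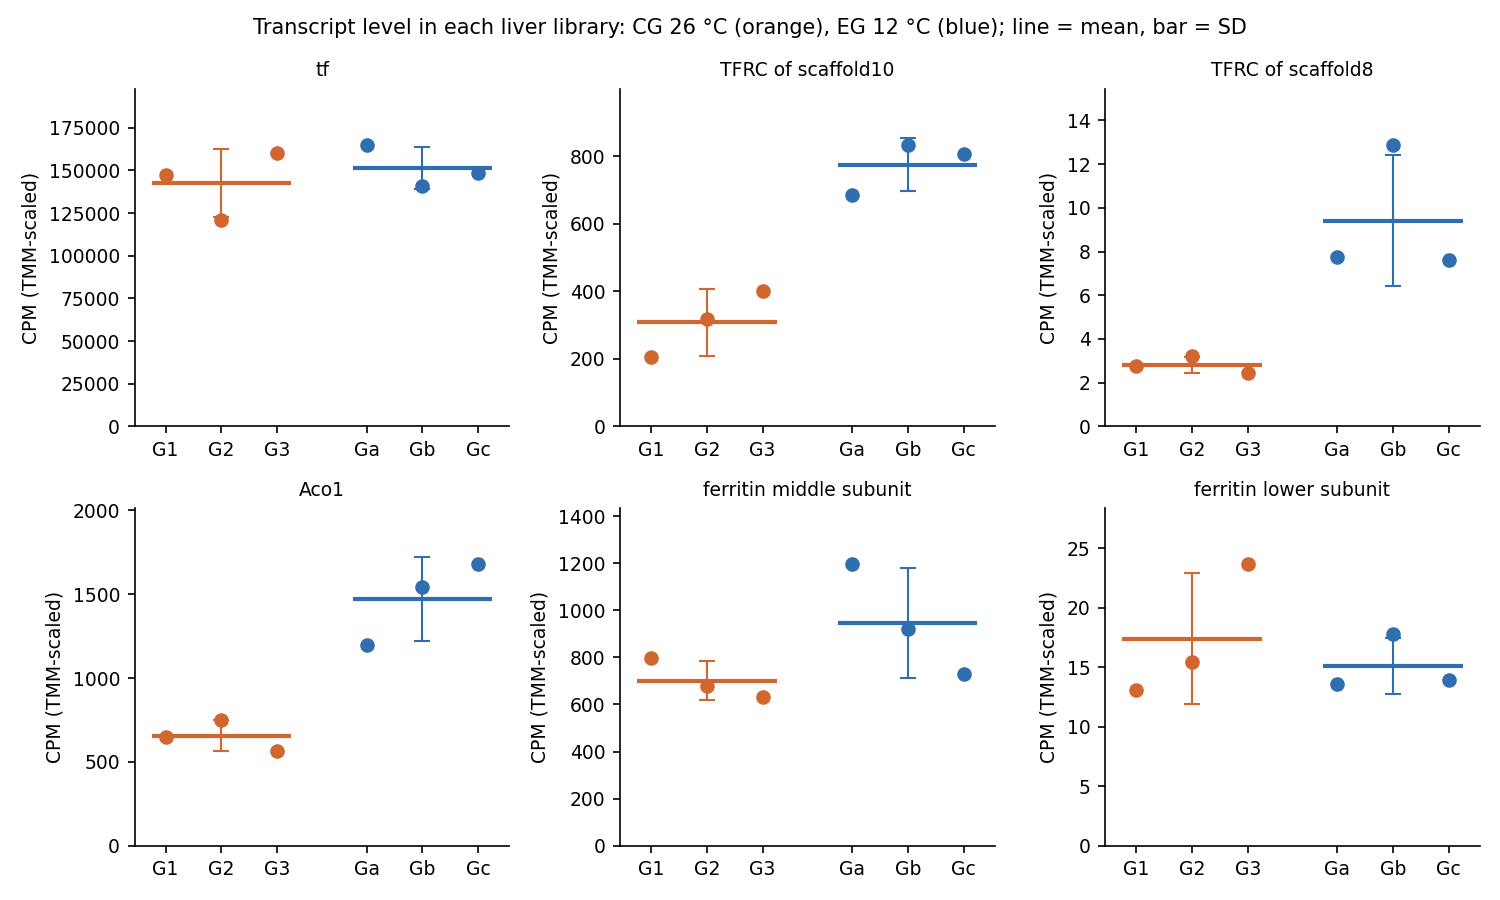
Level of the 6 iron transcripts in each library, in TMM-scaled CPM on a linear axis from 0, with CG in orange and EG in blue. Horizontal lines are means and vertical bars are SD (n = 3). The EG points of both TFRC rows and of Aco1 lie above all CG points, whereas tf and both ferritin rows overlap.

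By counts, the carrier was the largest single row of the liver libraries. The tf row (fugu_GLEAN_10006436, matched to serotransferrin of Oryzias latipes) lies on the minus strand of scaffold142 from 677662 to 681872, with a model length of 2055 bases. It held the most counts in each of the 6 libraries. By FPKM, the authors' value scaled by model length and library total, it ranked 1 in G1 and G3 and 2 in G2, Ga, Gb and Gc. Its share of summed FPKM was 7.3% to 10.5%. It took 16.6% of the counts in G1 (Wilson 95% interval 16.63 to 16.65), 13.3% in G2 (13.27 to 13.29) and 18.4% in G3 (18.36 to 18.39). The shares were 13.6% in Ga (13.55 to 13.57), 13.7% in Gb (13.66 to 13.69) and 13.0% in Gc (12.98 to 13.00). These intervals cover counting error only. G1 and G3 stood above all EG libraries, G2 lay within the EG range, and the EG shares were close together. The difference of the means was -2.69 percentage points, with an exact two-sided permutation p of 0.3 (3 against 3 libraries can give no p below 0.1).

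On the TMM scale the tf levels were 147027, 121050 and 160316 CPM in G1, G2 and G3 and 164694, 140687 and 148249 CPM in Ga, Gb and Gc. The groups overlapped, although G2 lay below every EG library and Ga above every CG library. This gave a log2 fold change of 0.08 ± 0.16 (SE), with a 95% interval from -0.27 to 0.44 and an adjusted p of 0.69. Its direction turned with the scaling. It was -0.26 when counts were scaled by library totals, a scaling under which the median gene also lay at -0.37, and -0.02 without G2. Relative to the median gene, tf stood 0.11 higher on the log2 scale with TMM and 0.10 higher with library totals. The liver's transferrin mRNA thus had no direction that these libraries could settle, within an interval that leaves out a change of 2-fold either way.

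The receptor rows were both higher in cold fish, but at very different levels. Both matched transferrin receptor protein 1 of Cricetulus griseus. The abundant row (fugu_GLEAN_10019205) lies on the minus strand of scaffold10 from 1559050 to 1572836, with a model of 3339 bases. The scarce row (fugu_GLEAN_10008827) lies on the plus strand of scaffold8 from 1334071 to 1343567, with a model of 2349 bases. Each has a row matched to TNK2, a nonreceptor tyrosine kinase, as its direct neighbour, at 9207 bases on scaffold10 and 3414 bases on scaffold8. In zebrafish a pair of transferrin receptor 1 genes is known, of which a single member is needed for iron uptake by red cell precursors. Which zebrafish gene either row corresponds to was not determined. Whether reads were split between the rows by the authors' counting is not known.

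TFRC of scaffold10 measured 205, 317 and 402 CPM in G1, G2 and G3 and 685, 832 and 808 CPM in Ga, Gb and Gc. The lowest EG library exceeded the highest CG library, and the CG libraries spread more widely than the EG libraries (1.96-fold against 1.22-fold from lowest to highest). In the test its log2 fold change was 1.33 ± 0.25 (SE, adjusted p = 0.0035). It remained between 1.11 and 1.57 when each library was left out in turn, with adjusted p of at most 0.016, and was 1.00 with library totals (adjusted p = 0.013).

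TFRC of scaffold8 had 116, 138 and 88 reads in G1, G2 and G3 and 291, 405 and 261 reads in Ga, Gb and Gc. On the CPM scale these were 2.77, 3.21 and 2.47 in CG and 7.76, 12.9 and 7.63 in EG, with Gb the highest and the groups apart. The log2 fold change was 1.74 ± 0.27 (SE, adjusted p = 0.0014), and 1.43 with library totals. The neighbouring TNK2 rows did not go the same way. Beside the scaffold8 receptor TNK2 fell by 0.65 on the log2 scale (adjusted p = 0.023), and beside the scaffold10 receptor its log2 fold change was -0.28 (adjusted p = 0.26).

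Per length, the scaffold8 row supplied 1.88%, 1.42% and 0.86% of the summed receptor FPKM in G1, G2 and G3 and 1.59%, 2.15% and 1.33% in Ga, Gb and Gc. FPKM is the authors' value scaled by model length and library total. These shares overlapped between the groups (exact two-sided permutation p = 0.5), so no difference in the balance of the 2 receptor rows was detectable. Of the mRNA of these 2 rows, nearly all was therefore that of scaffold10. Whether the longer scaffold10 model takes in part of another gene was not examined, and if it does, its FPKM and the ratios per receptor given below would change.

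Red cell precursors also express the transferrin receptor, and the red cells of fish keep a nucleus, so erythrocyte markers were set beside this result. Of 14 tested rows on a list of erythrocyte markers, 7 were lower in EG (50%, against 21.7% of all genes tested). By the same test 0 were higher (against 23.7%), and the median log2 fold change was -0.91. Their summed level was 6557 to 16564 CPM in CG and 3693 to 7191 CPM in EG, and none of the list's 16 rows was at 0 in all libraries. The number lower fell to 3 without G3 and to 4 without Gb, and rose to 11 with DESeq2, 12 with upper quartile factors and 13 with library totals. Over the 14357 genes tested, the number lower was 3113 in the main fit, 3397 with DESeq2, 3902 with upper quartile factors and 4514 with library totals. Over all genes tested in the fits with a library left out, it was 2351 without G3 and 2970 without Gb. The globin row hba measured 1710, 2371 and 4568 CPM in G1, G2 and G3 and 1547, 871 and 680 CPM in Ga, Gb and Gc. Within CG both hba and the scaffold10 receptor were lowest in G1 and highest in G3. Between the groups the receptor was higher and hba lower in every EG library. The other globin rows, hbb and hba2, overlapped between the groups, with Ga above G1, and did not pass (log2 fold changes -0.94 and -0.80, adjusted p = 0.073 and 0.10). In such bulk samples, fewer cells of a type and less RNA per cell cannot be told apart. Which cells the receptor mRNA came from was not tested.

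Aco1, the iron sensor, was also higher in cold fish. The row (fugu_GLEAN_10012632, matched to the mouse protein) lies on the minus strand of scaffold124 from 172678 to 177428, with a model of 2694 bases. It measured 649, 752 and 567 CPM in G1, G2 and G3 and 1196, 1543 and 1678 CPM in Ga, Gb and Gc. The groups were apart, with the lowest EG library at Ga. Its log2 fold change was 1.17 ± 0.19 (SE, adjusted p = 0.0018), between 1.07 and 1.30 when each library was left out, and 0.84 with library totals (adjusted p = 0.0095).

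IREB2, the second iron regulatory protein, which has no aconitase activity, was scarce. It measured 20.3, 22.9 and 23.1 CPM in CG and 27.8, 31.5 and 24.1 CPM in EG, with a log2 fold change of 0.33 ± 0.15 (SE, adjusted p = 0.11). The call depended on Gc, since without it the adjusted p was 0.047 at a log2 fold change of 0.43, and with library totals the fold change was 0.00. Per length, Aco1 exceeded IREB2 by 32.1 ± 4.92 times (SD, n = 3) in CG and 58.2 ± 15.0 times in EG, and these ratios did not overlap (exact two-sided permutation p = 0.1, the smallest possible).

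The ferritin rows did not pass. The row matched to the middle subunit of Salmo salar (fugu_GLEAN_10005450), a subunit type of fish and amphibians, lies on the plus strand of scaffold59 from 120273 to 121301, with a model of 531 bases. It measured 796, 677 and 632 CPM in G1, G2 and G3 and 1195, 919 and 729 CPM in Ga, Gb and Gc. Ga and Gb lay above all CG libraries and Gc lay below G1. The log2 fold change was 0.43 ± 0.21 (SE), with a 95% interval from -0.04 to 0.91 and an adjusted p of 0.12. Without Gc it was 0.60 with an adjusted p of 0.045, which would raise the number of rows higher in EG from 3 to 4, and with library totals it was 0.09 (adjusted p = 0.74).

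The row matched to the lower subunit of the bullfrog Lithobates catesbeiana (fugu_GLEAN_10011926) lies on the minus strand of scaffold66 from 705899 to 706693, with a model of 525 bases. It measured 13.1, 15.5 and 23.6 CPM in CG and 13.6, 17.8 and 13.9 CPM in EG. G3 stood above the rest and the other libraries were mixed. The log2 fold change was -0.20 ± 0.24 (SE, adjusted p = 0.51), with a 95% interval from -0.75 to 0.34, and it turned to 0.08 without G3. Both ferritin rows lie near a synaptotagmin match and a slow skeletal troponin T match, in which the pair of loci resemble each other. Of the mRNA of both ferritin rows, nearly all was that of the middle subunit. The lower subunit's part of the summed ferritin FPKM was 2.51% ± 1.03 (SD, n = 3) in CG and 1.65% ± 0.44 in EG, and the groups overlapped (exact two-sided permutation p = 0.3).

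The order of the 6 rows by FPKM was the same in each of the 6 libraries. It ran from tf through the ferritin middle subunit, Aco1, TFRC of scaffold10 and the ferritin lower subunit to TFRC of scaffold8. In CG their means were 78332, 1486, 273, 104, 37.4 and 1.35 FPKM, and in EG 65243, 1579, 489, 208, 25.8 and 3.63 FPKM. No neighbours in this order overlapped within a group. Carrier mRNA per receptor mRNA was 1142, 611 and 643 in G1, G2 and G3 and 385, 269 and 294 in Ga, Gb and Gc, so this ratio was lower in every EG library (exact two-sided permutation p = 0.1, the smallest possible). Ferritin mRNA per receptor mRNA, each summed over its rows, was 24.3, 13.5 and 10.2 in CG and 10.9, 6.93 and 5.71 in EG. Ga overlapped with G3 (exact two-sided permutation p = 0.2).

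**Figure D2:**
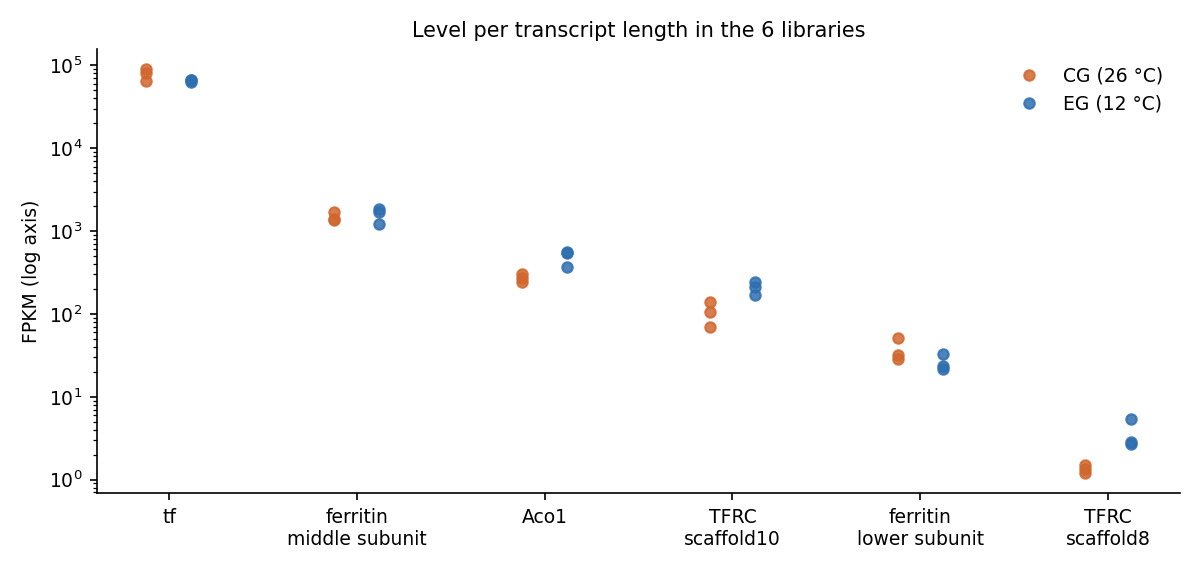
FPKM of the 6 iron transcripts on a log axis, with CG in orange and EG in blue, 1 point per library. The rows are ordered by mean level, from tf at 63190 to 89404 FPKM to TFRC of scaffold8 at 1.203 to 5.323 FPKM, and each column spans a narrow part of that range.

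The scaling of the libraries moved these fold changes together. With library totals the median over all genes tested was -0.37, with upper quartile factors -0.22, and with TMM -0.03. Relative to that median, the log2 fold change of TFRC of scaffold10 was 1.36 with TMM and 1.36 with library totals. That of Aco1 was 1.19 and 1.21, and that of the ferritin middle subunit was 0.46 and 0.45. Over the 14 alternatives run, both TFRC rows and Aco1 passed in each. Of the 14357 genes tested, 2024 were higher and 4514 lower with library totals, beside 3398 and 3113 with TMM. With a library left out, 2598 to 3329 were higher and 2219 to 2970 lower over all genes tested. List counts below, with library totals or with a library left out, are to be read beside these numbers.

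**Figure D3:**
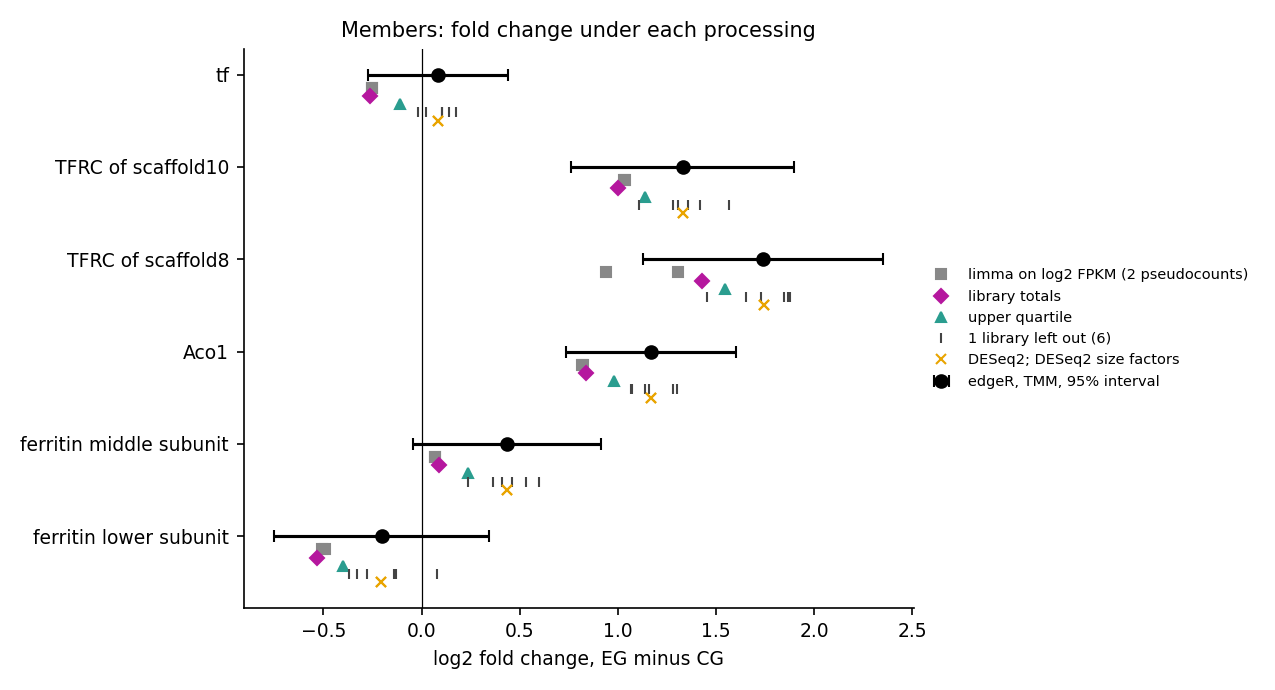
Log2 fold change (EG minus CG) of the 6 rows under the TMM fit of edgeR (black, 95% interval) and under other scalings, tools and subsets of libraries (coloured marks and ticks). Library totals (purple) and limma on FPKM (grey) give lower values for all 6 rows, and tf moves from 0.08 to -0.26 while both TFRC rows and Aco1 stay above 0.8.

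The iron exporter was much lower in cold fish. Ferroportin, slc40a1 (fugu_GLEAN_10004402), measured 256, 193 and 269 CPM in G1, G2 and G3 and 12.1, 35.6 and 33.0 CPM in Ga, Gb and Gc. Every EG library was far below every CG library, with Ga the lowest. Its log2 fold change was -3.16 ± 0.40 (SE, adjusted p = 0.00063), a level 8.91-fold lower, and between -3.41 and -2.80 when each library was left out. The FPKM of the receptor rows per FPKM of ferroportin was 0.42, 0.85 and 0.77 in CG and 29.6, 12.2 and 12.7 in EG. A second row matched to this exporter held almost no reads.

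Among 20 tested rows of iron uptake, export and storage partners other than the members, 6 were higher in EG (30%) and 4 lower (20%). These shares were near the 23.7% and 21.7% of all genes tested, and the median log2 fold change was -0.19. The number lower was 9 with library totals and 2 without G1, without G2 or without Ga. STEAP4, a metalloreductase that reduces iron and copper, measured 669, 525 and 451 CPM in CG and 2665, 1494 and 1439 CPM in EG (log2 fold change 1.77 ± 0.28 SE, adjusted p = 0.0017). STEAP3, the reductase of the transferrin endosome in mammalian red cell precursors, was at 21.7 to 26.8 CPM in CG and 24.0 to 27.8 CPM in EG (log2 fold change 0.09, adjusted p = 0.62). It was the relative of STEAP3, not STEAP3 itself, that passed the test.

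The divalent metal transporter Slc11a2, which moves iron out of the endosome, had a pair of rows. The abundant row (fugu_GLEAN_10002682) was at 75.3 to 85.9 CPM in CG and 76.2 to 85.6 CPM in EG (log2 fold change 0.05, adjusted p = 0.78). The other (fugu_GLEAN_10016370) measured 9.84, 10.9 and 8.99 CPM in CG and 54.9, 21.1 and 19.5 CPM in EG (log2 fold change 1.68 ± 0.39 SE, adjusted p = 0.0091). Ga was the highest of its EG libraries, and the log2 fold change without Ga was 1.04.

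Mitochondria import iron by mitoferrins. Mitoferrin-2, slc25a28 (fugu_GLEAN_10002936), the form of most tissues, measured 20.2, 22.9 and 21.6 CPM in CG and 211, 144 and 161 CPM in EG (log2 fold change 2.99 ± 0.19 SE, adjusted p = 6.1e-05). Mitoferrin-1, slc25a37, the form of red cell precursors, was at 3.32 to 6.47 CPM in CG and 2.51 to 3.55 CPM in EG (log2 fold change -0.60, adjusted p = 0.15, and -0.96 with an adjusted p of 0.037 with library totals). Pcbp2, which in mammals delivers cytosolic iron to ferritin, rose in both of its rows, with log2 fold changes of 1.17 and 1.59 (adjusted p = 0.00044 and 0.00018).

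Other partners were unlike these. Ceruloplasmin, CP, the plasma ferroxidase, stood at a log2 fold change of -0.19 (adjusted p = 0.51, and -0.55 with an adjusted p of 0.045 with library totals). NCOA4, which sends ferritin to autophagy, was at 135 to 145 CPM in CG and 118 to 130 CPM in EG (log2 fold change -0.18, adjusted p = 0.27, and -0.52 with an adjusted p of 0.018 with library totals). HEPHL1, a ferroxidase, passed at a log2 fold change of 1.69 (adjusted p = 0.014) although Gc lay within the CG range. It missed the threshold without G1 (adjusted p = 0.059) or without G2 (0.052). It also missed with limma on log2(FPKM + 1) (0.070) and on log2(FPKM + 0.1) (0.069). Slc39a14, a transporter of zinc and of iron not bound to transferrin, fell by 1.25 on the log2 scale (adjusted p = 0.0034). It was scarce, at 4.23 to 5.13 CPM in CG and 1.81 to 2.03 CPM in EG. Mcoln1, a lysosomal iron channel, fell by 0.82 (adjusted p = 0.034), a call that was lost without G1, G2, Ga or Gc (adjusted p = 0.087 to 0.13).

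**Figure D4:**
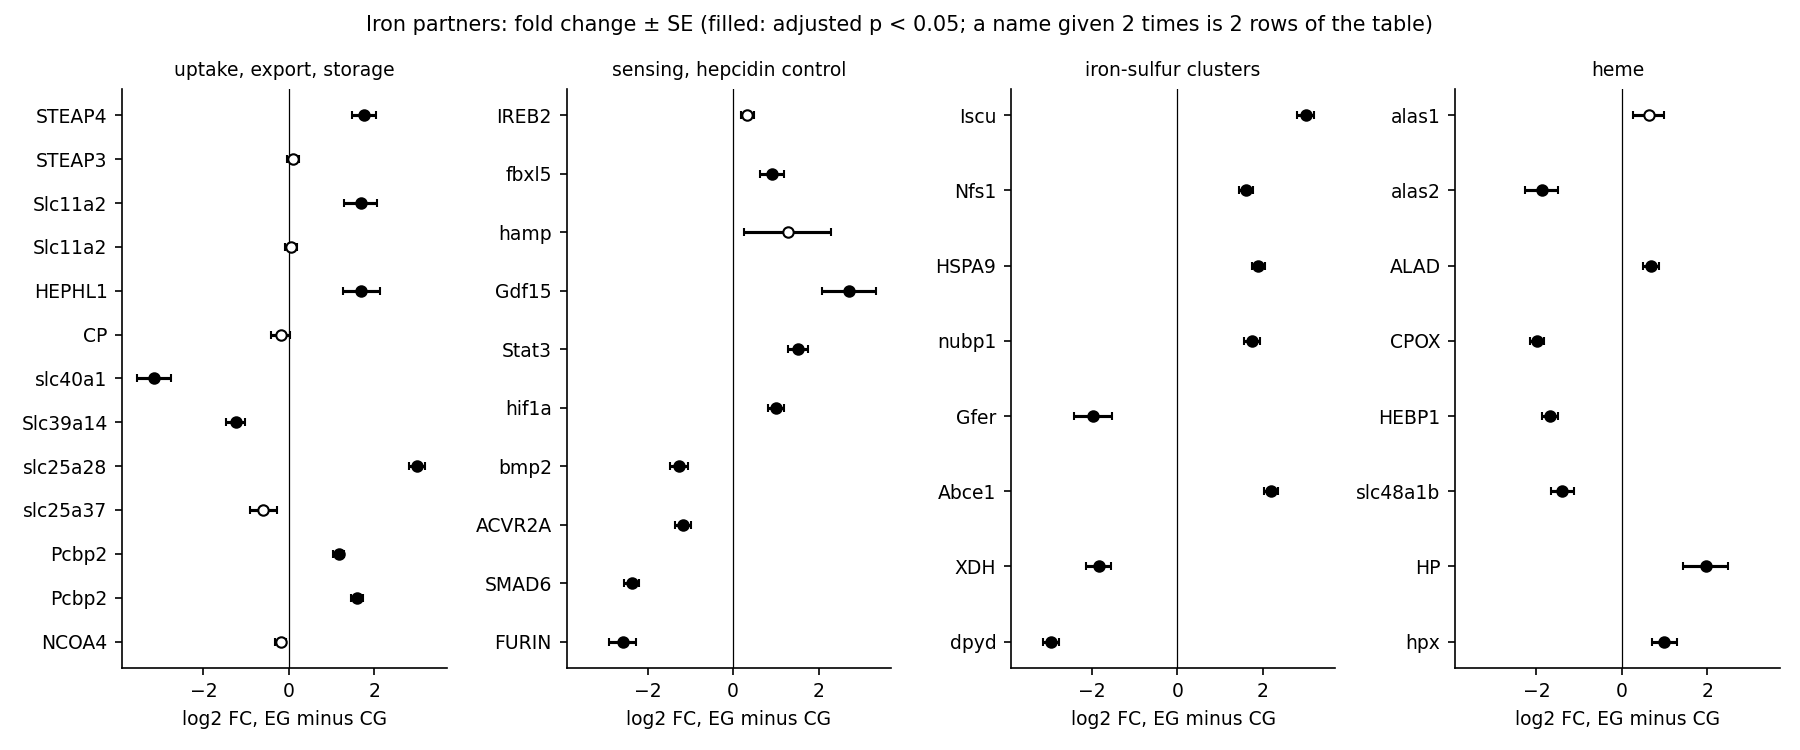
Log2 fold change ± SE (EG minus CG) of iron partners in 4 groups, with filled points for an adjusted p under 0.05. Ferroportin (slc40a1) lies at -3.16, mitoferrin-2 (slc25a28) and Iscu at 2.99, and open points such as STEAP3, CP, NCOA4, IREB2 and hamp did not pass.

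A list for clathrin endocytosis, endosome acidification and recycling, the path of the receptor through the cell, held 49 tested rows. Of these, 19 were higher in EG (38.8%, against 23.7% of all genes tested) and 8 were lower (16.3%, against 21.7%). The median log2 fold change was 0.31. With library totals 7 of the 49 were higher, beside 2024 of the 14357 genes tested. The largest rises were in EHD1, a membrane remodeller of the recycling endosome, whose rows fugu_GLEAN_10007296 and fugu_GLEAN_10009636 had log2 fold changes of 3.18 and 2.84 (adjusted p = 0.00014 and 0.00054). Another EHD1 row, fugu_GLEAN_10014797, fell by 2.72 (adjusted p = 0.0017) from 4.37 to 6.04 CPM in CG to 0.32 to 1.09 CPM in EG. RAB5C of the early endosome rose by 2.14 and PICALM, a clathrin adaptor, by 1.45 on the log2 scale (adjusted p = 0.0037 and 0.00017). Rab4a of fast recycling, at 2.12 to 2.80 CPM in CG, fell by 2.86 (adjusted p = 0.0029), RAB5B by 1.39 and Atp6v1a of the proton pump by 1.18 (adjusted p = 0.0098 and 0.0029). RAB5B was also scarce, at a mean of 3.04 CPM in CG and 1.16 CPM in EG.

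Hepcidin and the signals that set its level formed the next list. Of 35 tested rows for iron sensing and hepcidin control, 7 were higher (20%) and 9 were lower (25.7%), near the shares of all genes tested (23.7% and 21.7%). The median log2 fold change was 0.07, with 3 higher under library totals and 3 without G1. Hepcidin itself, hamp, measured 571, 100 and 2530 CPM in G1, G2 and G3 and 4061, 3018 and 660 CPM in Ga, Gb and Gc. It spanned 25.2-fold within CG and 6.15-fold within EG, the groups overlapped and the log2 fold change of 1.27 ± 1.02 (SE) did not pass (adjusted p = 0.34). Without G3 it was 2.94 with an adjusted p of 0.052.

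Several regulators did pass. SMAD6, an inhibitor of the BMP signal that drives hepcidin, fell by 2.38 on the log2 scale, from 18.2 to 22.5 CPM in CG to 3.27 to 4.51 CPM in EG (adjusted p = 0.00011). FURIN, a protease that cuts hemojuvelin and pro-hepcidin, fell by 2.59, bmp2, a ligand of that signal, by 1.27 and ACVR2A, a receptor for it, by 1.17 (adjusted p = 0.00049, 0.0020 and 0.0017). FURIN was at a mean of 7.44 CPM in CG and 1.23 CPM in EG. Stat3, which carries the inflammatory signal to hepcidin, rose by 1.52, hif1a of the hypoxia response by 1.00 and Gdf15, a stress cytokine, by 2.71 (adjusted p = 0.0014, 0.0039 and 0.010). The Gdf15 values ran from 8.46 to 19.8 CPM in CG and were 210, 40.1 and 57.6 CPM in EG, so that without Ga its log2 fold change was 1.65. Fbxl5, which marks iron regulatory protein 2 for decay, rose by 0.91 (adjusted p = 0.032), a call that was lost with library totals (0.11) and without any of the CG libraries (0.059 to 0.098).

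**Figure D5:**
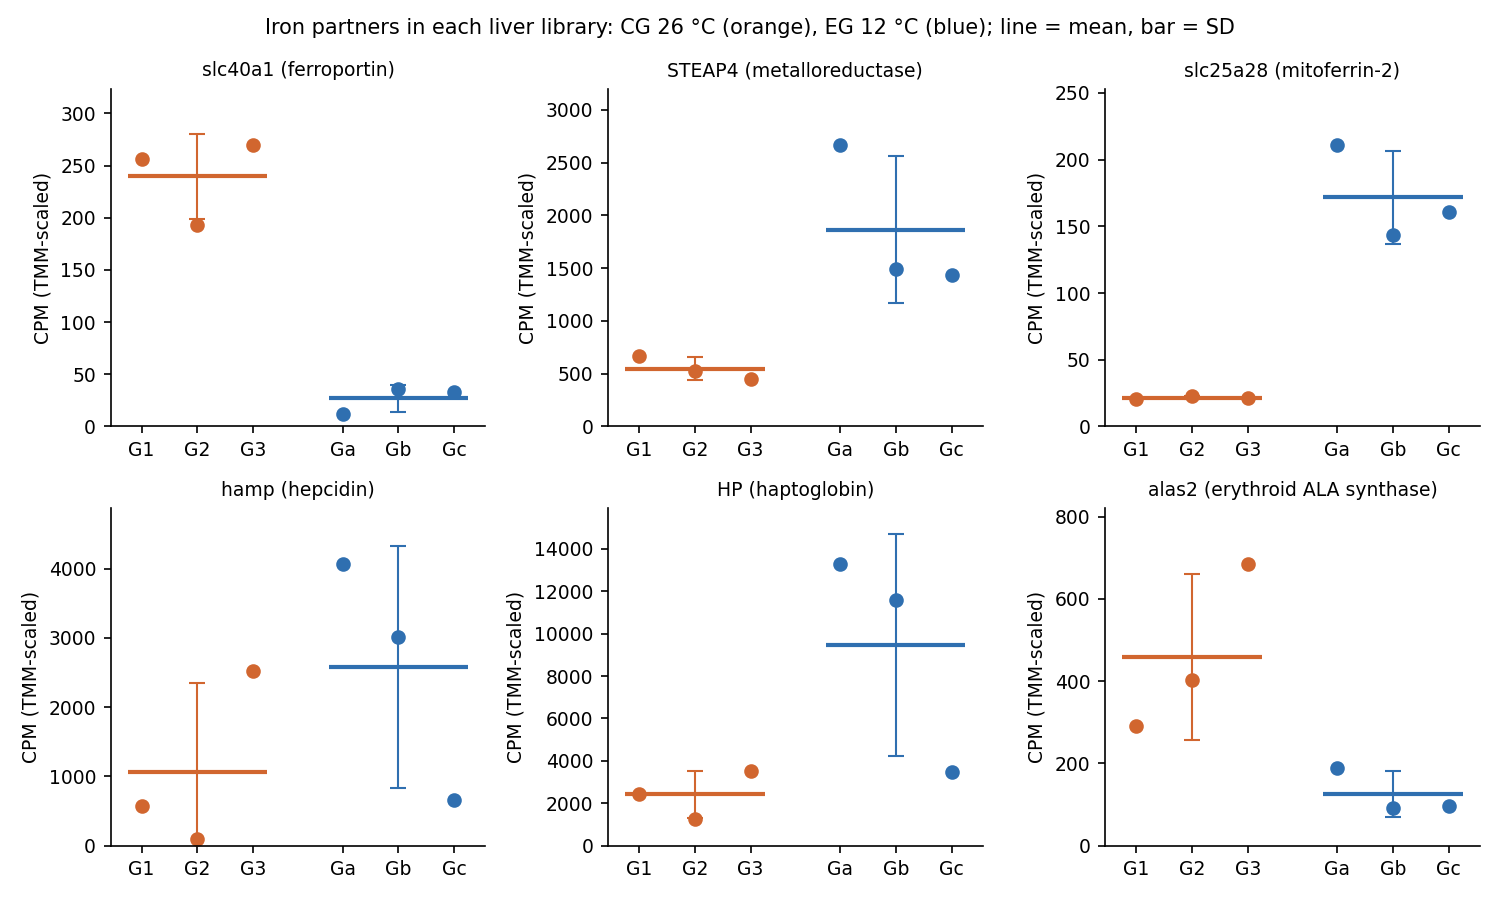
Level in each library of 6 iron partners, in TMM-scaled CPM on a linear axis from 0, with CG in orange and EG in blue. Lines are means and bars are SD (n = 3). Ferroportin falls to 12.1 to 35.6 CPM in EG, STEAP4 and mitoferrin-2 rise with no overlap, and hepcidin and haptoglobin overlap between the groups.

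The iron-sulfur cluster is what makes Aco1 an enzyme. Of 25 tested rows for the assembly of such clusters, 13 were higher in EG (52%, against 23.7% of all genes tested). In the same list 3 were lower (12%, against 21.7%), and the median log2 fold change was 0.51. With library totals 8 were higher, and the number lower was 1 without G2, G3 or Gb. The scaffold protein Iscu (fugu_GLEAN_10012461) measured 50.1, 59.1 and 40.7 CPM in CG and 386, 344 and 466 CPM in EG (log2 fold change 2.99 ± 0.20 SE, adjusted p = 6.6e-05). Its partner Nfs1, the cysteine desulfurase that supplies sulfur, rose by 1.60, the chaperone HSPA9 by 1.89 and the cytosolic factor nubp1 by 1.74 (adjusted p = 0.00019, 0.00011 and 0.00033). The rows that fell were Gfer, a sulfhydryl oxidase, by 1.99, iba57 by 1.50 and BOLA1 by 0.86, all at under 7 CPM (adjusted p = 0.0081, 0.026 and 0.029). The calls of iba57 (without G2, G3, Gb or Gc, adjusted p up to 0.093) and of BOLA1 (without G2, G3, Ga or Gb, up to 0.11) were lost when a library was left out.

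Of 29 tested rows for enzymes that carry such clusters, 8 were higher (27.6%, against 23.7% of all genes tested). In this list 2 were lower (6.9%, against 21.7%), and the median was 0.27. Those higher included Prim2 of DNA primase (log2 fold change 2.92), Abce1 of ribosome recycling (2.19), rtel1, a helicase (1.51), and elp3 of the elongator complex (1.16), with adjusted p between 9.0e-05 and 0.0033. Prim2 and rtel1 were scarce in CG, at means of 1.36 and 2.95 CPM, and reached 10.3 and 8.44 CPM in EG. The pyrimidine-degrading enzyme dpyd fell by 2.96 and xanthine dehydrogenase, XDH, by 1.85 (adjusted p = 6.1e-05 and 0.0017). Of 12 tested rows whose transcripts hold iron-responsive elements in mammals, members aside, 4 were higher (33.3%) and 2 were lower (16.7%). The shares of all genes tested were 23.7% and 21.7%, and the median of the 12 rows was 0.24. Those higher included the scarce Slc11a2 row (fugu_GLEAN_10016370) and both rows of the actin binder Pfn2 (log2 fold changes 1.32 and 1.14). The second Pfn2 row was at a mean of 1.59 CPM in CG and 3.50 CPM in EG. The abundant Slc11a2 row (fugu_GLEAN_10002682) did not pass, and those lower were slc40a1 and alas2. Whether these pufferfish transcripts hold such elements was not examined.

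Heme is the other main use of iron. Of 32 tested rows for its synthesis, transport and breakdown, 6 were higher (18.75%) and 8 were lower (25%), beside 23.7% and 21.7% of all genes tested, and the median was -0.28. With library totals 2 were higher and 14 lower, and the number higher was 1 without G1, 2 without G2 and 3 without Gb. CPOX, a late enzyme of the pathway, fell by 1.98 on the log2 scale (adjusted p = 0.00011), the heme carrier HEBP1 by 1.69 (0.00034) and the heme transporter slc48a1b by 1.40 (0.0042). ALAD, an early enzyme, rose by 0.69 (adjusted p = 0.018), a call lost in 7 of the 14 alternatives. It was lost with library totals (0.19), with upper quartile factors (0.055) and without any of the CG libraries (0.056 to 0.065). It was also lost with limma on log2(FPKM + 1) and on log2(FPKM + 0.1) (0.15 in each).

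The first enzyme of heme synthesis exists in an erythroid and a general form. The erythroid alas2 measured 292, 403 and 684 CPM in CG and 189, 91.0 and 95.9 CPM in EG (log2 fold change -1.87 ± 0.39 SE, adjusted p = 0.0057). It is itself 1 of the 7 erythrocyte marker rows that were lower. The general alas1 measured 80.3, 93.4 and 88.2 CPM in CG and 59.0, 165 and 180 CPM in EG. Ga lay below and the others above all CG libraries, and the log2 fold change of 0.63 (adjusted p = 0.19) became 0.99 without Ga (adjusted p = 0.0028). A row matched to heme oxygenase, hmox, which frees iron from heme, rose by 0.88 (adjusted p = 0.0080, and 0.086 with library totals). With limma on log2(FPKM + 1) and on log2(FPKM + 0.1) its adjusted p was 0.11 and 0.10. The hmox row was added after its values were seen.

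The plasma proteins that bind hemoglobin and heme passed as higher in EG, although in each the groups overlapped and the call was lost in several alternatives. HP, haptoglobin, measured 2447, 1277 and 3528 CPM in CG and 13263, 11597 and 3492 CPM in EG (log2 fold change 1.97 ± 0.53 SE, adjusted p = 0.017). Gc lay within the CG range, and the call was lost without G1 (adjusted p = 0.058) or without Ga (0.052). It was also lost with limma on log2(FPKM + 1) and on log2(FPKM + 0.1) (adjusted p = 0.058 in each). Hemopexin, hpx, had a log2 fold change of 0.99 ± 0.30 (SE, adjusted p = 0.026), and Gc at 6229 CPM lay below G3 at 6399 CPM. The hpx call was lost in 8 of the 14 alternatives. These included leaving out G1, G2, Ga or Gb (adjusted p = 0.065 to 0.082) and library totals (0.10).

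Transferrin shares its source with other abundant plasma proteins of hepatocytes. Of 44 tested rows on that list, 16 were higher (36.4%, against 23.7% of all genes tested) and 6 were lower (13.6%, against 21.7%). The median log2 fold change was 0.10. With library totals 7 were higher and 13 lower, and 10 were higher without G1 and 8 without Ga. Complement factor B, CFB (fugu_GLEAN_10015306), rose by 1.39 on the log2 scale, complement C3 (fugu_GLEAN_10004682) by 1.15 and the fibrinogen chain FGA by 1.09 (adjusted p = 0.0062, 0.0022 and 0.0023). The most abundant C3 row, fugu_GLEAN_10018842, rose by 0.52 (adjusted p = 0.039). The remaining C3 rows, at log2 fold changes of -0.42, -0.35 and -0.18, did not pass. APOA4, an apolipoprotein, fell in its rows fugu_GLEAN_10002893 by 1.93 and fugu_GLEAN_10002894 by 1.33, a second CFB row (fugu_GLEAN_10003914) by 0.97 and SERPINA1, a protease inhibitor, by 0.95 (adjusted p = 0.00091 to 0.0048). The tf row, with its interval from -0.27 to 0.44, was not among those that passed.

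The counts summed to 31150888 to 39203099 per CG library and to 32391863 to 45548824 per EG library, and the common biological coefficient of variation was 29.6%. Hepatocyte markers were present at a summed 95950 to 114224 CPM in CG and 132924 to 165220 CPM in EG, with 11 of 29 tested rows higher and 6 lower, so the markers of the labelled tissue were present. Other cell types were present at lower levels. Leukocyte markers summed to 142 to 216 CPM in CG and 103 to 192 CPM in EG (6 of 24 tested rows lower, 1 higher). The number lower was 3 without G1, G3 or Gb, 11 without Ga or with library totals, and 12 with limma on log2(FPKM + 1). Endothelial and stellate cell markers summed to 1627 to 2110 and 1082 to 1851 CPM (8 of 35 lower, 0 higher), and biliary and gut markers to 588 to 658 and 528 to 623 CPM (3 of 20 lower, 0 higher). With library totals 17 endothelial and stellate rows were lower. Exocrine pancreas markers varied most, from 6149 to 26702 CPM in CG and 645 to 23390 CPM in EG (1 of 14 lower, 0 higher). Of 24 tested genes that respond to tissue handling, 6 were higher (25%) and 5 lower (20.8%), which became 10 and 2 without G1. The shares of all genes tested were 23.7% and 21.7%. For hepatocyte markers the shares were 37.9% higher and 20.7% lower. The share lower was 25% for leukocyte, 22.9% for endothelial and stellate, 15% for biliary and gut and 7.1% for exocrine pancreas markers. The share higher was 4.2% for leukocyte markers and 0% for each of the others, below the 23.7% of all genes tested. Their median log2 fold changes were -0.72, -0.48, -0.42 and -0.32 in the same order. The median was 0.24 for hepatocyte markers and -0.03 over all genes tested. The part of these other cells in the iron results was not tested.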

How the data were processed

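The authors trimmed the reads and used HISAT2 2.0.4 with their unpublished genome, and named RSEM 1.2.3 for values per length (RPKM in their methods). The deposited table holds raw counts and FPKM per gene, and the counter behind the counts is not given in the sources used here. The genome build is not given in the sources used here, so positions are scaffold coordinates of the deposited table. The authors' own fold changes, p-values and group means were not used. Counts were filtered with filterByExpr, scaled by TMM and compared with the quasi-likelihood test of edgeR 4.0.16 in R 4.3.3, with Benjamini-Hochberg adjustment over 14357 genes. This procedure was first tested on simulated data. DESeq2 1.42.0, limma 3.58.1 on log2(FPKM + 1) and log2(FPKM + 0.1), other scalings, no filter and leaving out each library were alternatives. Shares and ratios had an exact permutation test (SciPy 1.17.1).

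The members and the 8 iron lists and 7 marker lists were chosen with earlier results of these data known. Named partners were those of each iron list with an adjusted p under 0.05, a mean of at least 1 CPM and the 4 largest changes in each direction, and a set of main iron genes. Pooled livers are the replicates. The aquaria were divided between the groups, so an effect of aquarium or of a day of library work that followed the groups cannot be told apart from temperature. Single rows of the table are not isoforms. No sequences are printed, because none was at hand. Some genes that meet these rules are not reported here.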

Additional observations from a re-analysis of the deposited data

How the results depend on the processing

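Over 14 alternatives, the rises of both TFRC rows and of Aco1 kept their direction and their side of the threshold, and no member was called lower. When each library was left out, the number of members called higher was 3 to 4, the log2 fold change of tf -0.020 to 0.17, of the ferritin middle subunit 0.24 to 0.60 and of the ferritin lower subunit -0.37 to 0.079. The tf value turned to -0.26 with library totals, -0.11 with upper quartile factors and -0.25 with limma on log2(FPKM + 1) and on log2(FPKM + 0.1). Library totals and FPKM leave the median gene below 0, so fewer genes are called higher. Over all genes, 3398 higher and 3113 lower under TMM became 2024 and 4514 with library totals, 1962 and 4754 with limma on log2(FPKM + 1), and 1970 and 4700 with log2(FPKM + 0.1). Among the genes called in either direction, the percentage higher went from 52.2% to 30.96%, 29.2% and 29.5%, and was 39.98% with upper quartile factors. Among the 8 iron lists, the share higher was 52% for cluster assembly, 38.8% for receptor endocytosis and 36.4% for plasma proteins of hepatocytes. It was 33.3% for transcripts with iron-responsive elements, 30% for uptake, export and storage, and 27.6% for cluster enzymes. For sensing and hepcidin control it was 20%, and for heme 18.75%. These shares are of the TMM fit and moved with the scaling. With library totals, 8 of 25 cluster assembly rows, 7 of 49 endocytosis rows and 7 of 44 plasma protein rows were higher. Over all genes tested, 2024 of 14357 were higher with that scaling. The endocytosis and plasma protein lists, with 49 and 44 tested rows, are not specific to iron but are part of the pooled count. Over the 8 lists together, 75 of 236 were higher (31.8%, against 23.7% of all genes tested) and 40 lower (16.9%, against 21.7%). These became 41 and 61 with library totals, 38 and 62 with log2(FPKM + 1), and 39 and 61 with log2(FPKM + 0.1). Leaving out a library gave 53 to 68 and 32 to 44, beside 2598 to 3329 and 2219 to 2970 over all genes tested.

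Some partners that did not pass turned sign. With library totals these were Slc11a2 (fugu_GLEAN_10002682) at -0.29, STEAP3 at -0.25, IREB2 at -0.0011 and TFR2 (Novel00039) at -0.051. With upper quartile factors Slc11a2 was -0.14 and STEAP3 -0.10. With limma on log2(FPKM + 1) Slc11a2 was -0.28, STEAP3 -0.23 and IREB2 -0.014, and with log2(FPKM + 0.1) they were -0.29, -0.24 and -0.017. TFR2 (Novel00778) was 0.00010 without the tf row and 0.0060 without the filter. Leaving out a library gave -0.18 to 0.29 for TFR2 (Novel00778), -0.49 to 1.10 for TFR2 (Novel00039) and -0.34 to 1.23 for a second Iscu row (fugu_GLEAN_10014761) at under 3 CPM. The difference in the tf share was -4.10 to -1.55 points when a library was left out and -1.66 points as a share of summed FPKM. No paired analysis was made, because the sources used here link no CG pool to an EG pool. With 3 pools per group, smaller changes than these intervals are not resolved.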

Other observations

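Hepcidin, haptoglobin and hemopexin put the 6 libraries in the same order, which was noticed after their values were seen. In each of hamp, HP and hpx the order from low to high was G2, G1, Gc, G3, Gb and Ga. The spread within CG was 25.2-fold for hamp, 2.76-fold for HP and 1.84-fold for hpx. Neither receptor row, tf, Aco1 nor a ferritin row followed that order. For TFRC of scaffold10 it was G1, G2, G3, Ga, Gc and Gb, and for the erythroid rows hba and alas2 the EG libraries were all below the CG libraries, with G1, G2 and G3 in that order.

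Transferrin receptor 2, the hepatocyte form that takes part in iron sensing, had no Swiss-Prot gene name in the table and was found afterwards by protein name, as a pair of transcripts absent from the reference gene set. The abundant TFR2 row (Novel00778) measured 257, 243 and 414 CPM in CG and 284, 380 and 251 CPM in EG (log2 fold change 0.00 ± 0.25 SE, edgeR adjusted p = 1.0). Per length it was at 150 ± 49.6 FPKM (SD, n = 3) in CG and 120 ± 36.2 FPKM in EG. TFRC of scaffold10 was at 104 ± 34.2 and 208 ± 36.9 FPKM. On the FPKM scale the median gene was also lower in EG, at -0.36 with limma on log2(FPKM + 0.1). The scarce TFR2 row (Novel00039) was at 0.67 to 7.65 CPM in CG and 2.61 to 8.73 CPM in EG.

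The genes whose log2 CPM followed a member most closely over the 6 libraries, among 5683 or 5684 named genes with a mean of at least 10 CPM, are given as a description. For tf they were pcnx (r = 0.98), FOXN2 (0.94) and the endoplasmic reticulum chaperone Hsp90b1 (0.92). For TFRC of scaffold10 they included rpl18 and prkrip1 (1.00 each), and for TFRC of scaffold8 ostc and Rwdd1 (1.00 each). For Aco1 they were SEPT10, Tulp4 and WDR48 (1.00 each). For the ferritin middle subunit they included ctbp2 and PIM1 (0.98 each), and for the lower subunit S100A16, RPL14 and cpt2 (0.94, 0.93 and 0.93). With 6 points in 2 groups such values come easily: 742 genes exceeded 0.9 with TFRC of scaffold10, 1444 with TFRC of scaffold8, 1135 with Aco1 and 4 with tf.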
